A study of Mus musculus with 6 samples.

Results

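The 38 genes described here build and run the mitotic spindle. They were taken by gene symbol from a list of mitosis and spindle genes, and all 38 were found among the 19309 genes of the expression table. RNA was sequenced from the cheek tissue of 3 healthy C57BL/6 mice aged 6 to 8 weeks, with 1 library from each cheek. In each mouse the shaved right cheek was wiped for 30 s with an equal mixture of acetone and ether and then for 30 s with water (AEW, a model of dry skin). The left cheek was wiped for 60 s with water alone (vehicle). Wiping was done 2 times a day, and tissue was collected on day 12. The labels name no transgene or other agent. The side of the face and the treatment cannot be told apart, and the replicate number is the mouse number.

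A cell enters mitosis when cyclin B and Cdk1 become active, after Cdc25 phosphatases have removed the inhibitory phosphates from Cdk1. Aurora and Polo-like kinases then help to build a bipolar spindle, and the spindle assembly checkpoint holds the cell until every kinetochore is attached. The anaphase-promoting complex with Cdc20 ends that arrest, separase cuts the cohesin that joins sister chromatids, and centralspindlin, Ect2 and anillin guide the cleavage furrow. In skin, dividing cells are found mainly in the basal layer of the epidermis and in the matrix of growing hair follicles. Transcripts of these genes peak in G2 and M phase, so in bulk tissue their level follows how many cells are in those phases, and more dividing cells cannot be told apart from more RNA per dividing cell.

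Library totals were between 18449145 and 19506462 estimated counts. The tissue carried epidermal keratins, with Krt5 at 3165 ± 766 CPM in vehicle and 4268 ± 24.7 CPM in AEW libraries (SD, n = 3 each; CPM is the count scaled to a common library total, after TMM scaling). It also held skeletal muscle, with Acta1 at 10237 ± 2081 CPM in vehicle and 3898 ± 766 CPM in AEW libraries. AEW replicate 1 stood apart from the other AEW libraries in melanocyte markers and in the mitosis genes, so the members' log2 changes and calls are also given without it. Hair follicle markers differed among all AEW libraries, and were high in AEW replicate 1 and low in AEW replicate 2.

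All 38 mitosis and spindle genes had higher levels in AEW than in vehicle skin. Their fitted AEW to vehicle folds ran from 1.43 to 3.61 with a median of 2.62, a median log2 change of 1.39 beside 0.014 for the 15109 genes tested. The rise passed an adjusted p of 0.05 for 32 of 38 members in the edgeR quasi-likelihood test, beside 4.85% of all tested genes. Of the members 0 were called lower, beside 6.8% of all tested genes, and all 38 were higher at an unadjusted p under 0.05, beside 14.8%. A fitted rise of at least 2-fold was seen in 34 members and in 4.02% of all tested genes. In all 38 members the lowest AEW library lay above the highest vehicle library, as it did for 17.4% of all tested genes, and each member was higher on the AEW cheek of all 3 mice, as 25.3% of tested genes were. The summed level of the members was 520, 716 and 516 CPM in vehicle replicates 1, 2 and 3, and 2199, 1121 and 1127 CPM in AEW replicates 1, 2 and 3. The groups did not overlap, and AEW replicate 1 was far above the other treated libraries.

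The number of calls depended on the libraries and on the mouse term. With the mouse as a block, 8 of 38 members were called higher, against 1.99% of all tested genes, and 37 had an unadjusted p under 0.05, against 12.9%. Those 8 were Ccnb1, Ccnb2, Plk1, Incenp, Birc5, Cdca8, Ttk and Ube2c. Without AEW replicate 1, 34 members were called, against 7.83% of all tested genes, and the median log2 fold change was 0.92. Dropping vehicle replicate 2 gave 13 calls (2.46% of all tested genes), dropping AEW replicate 2 gave 13 (1.14%), and dropping AEW replicate 3 gave 18 (2.27%). It was 0 without vehicle replicate 1 (lowest adjusted p = 0.069 with edgeR, and 37 members at an unadjusted p under 0.05) and 0 without vehicle replicate 3 (lowest adjusted p = 0.0822, 37 members at an unadjusted p under 0.05). In those fits 0.216% and 0.15% of all tested genes were called higher. The share of all tested genes at an unadjusted p under 0.05 was not computed there, so the counts of 37 stand alone. DESeq2 on all 6 libraries called all 38, against 8.56% of the genes it tested. The member counts were 32 with RLE scaling (4.96% of all tested genes), 31 with library totals only (4.82%), 32 with no filter on low counts (3.51%), 22 with limma on log2(TPM + 0.1) (4.73%) and 19 with limma on log2(TPM + 1) (4.58%). With the block they were 36 without mouse 1 (12.7%), 14 without mouse 2 (0.738%) and 0 without mouse 3, where 0 of all genes were called.

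**Figure D1:**
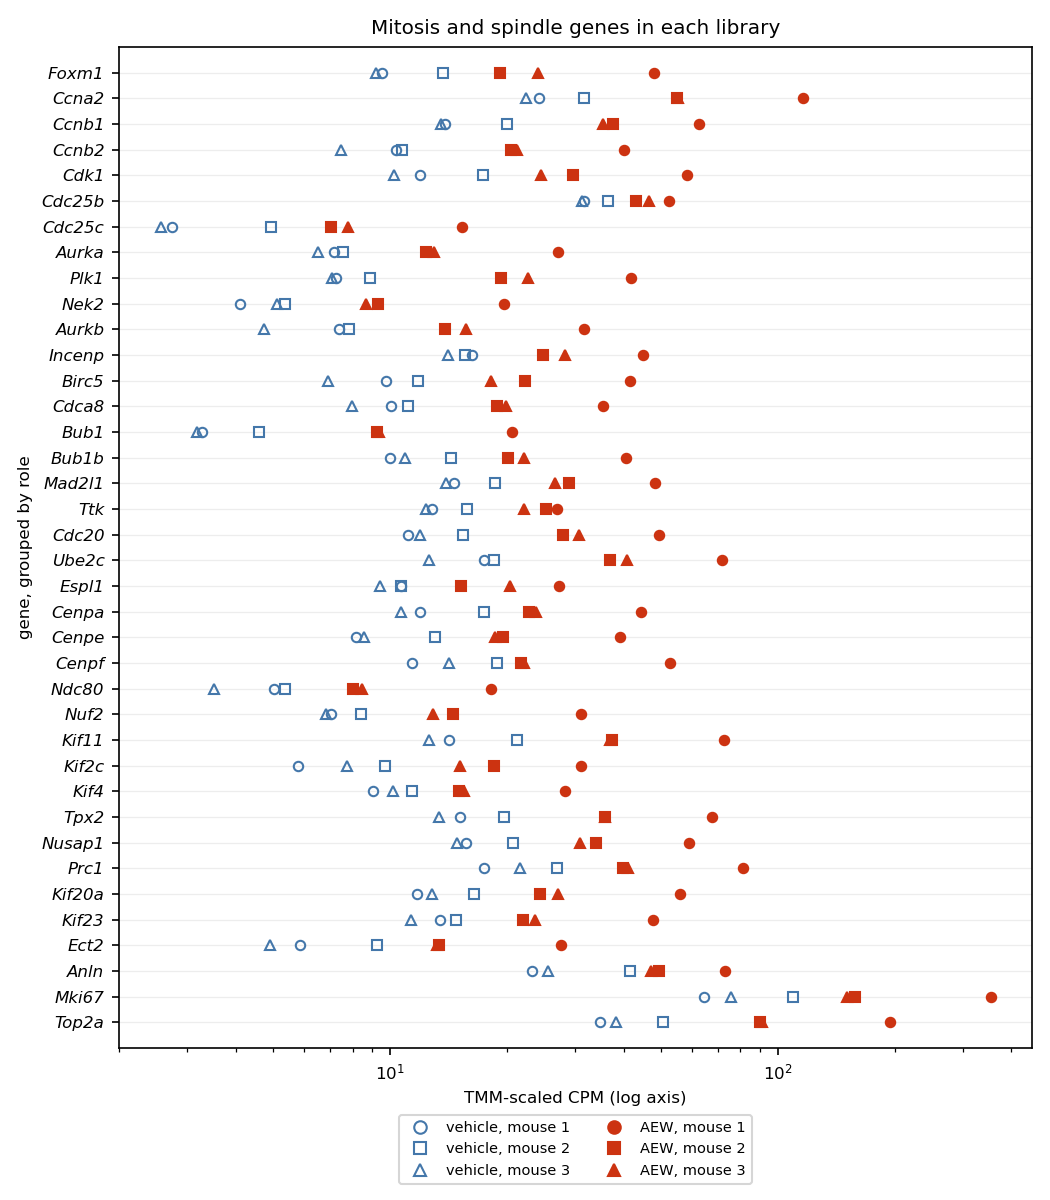
Level of each of the 38 genes in each library, in TMM-scaled CPM on a log axis, with 1 row per gene, open blue symbols for vehicle and filled red symbols for AEW, and the symbol shape giving the mouse. In every row all 3 AEW symbols lie to the right of all 3 vehicle symbols, and the AEW library of mouse 1 lies farthest right.

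Cyclins, the Cdk1 kinase and its activators came first in the order of mitosis, and all 7 members of this group were called higher. Ccnb1 (gene 268697), which encodes cyclin B1, the partner that switches Cdk1 on, measured 13.8, 20.0 and 13.5 CPM in vehicle replicates 1 to 3 and 62.5, 37.6 and 35.4 CPM in AEW replicates 1 to 3. The lowest treated library was thus well above the highest control library. Its log2 fold change was 1.52 ± 0.26 (SE, adjusted p = 0.0192, and 0.0483 with the mouse as a block). Ccnb2 (gene 12442), the cyclin B2 gene, rose from 9.53 ± 1.81 to 27.3 ± 11.04 CPM (SD, n = 3 each), a log2 change of 1.52. Cdk1 (gene 12534) itself measured 11.9, 17.4 and 10.2 CPM in vehicle and 58.3, 29.7 and 24.5 CPM in AEW replicates 1 to 3, at an adjusted p of 0.0416 (0.0715 with the block). Ccna2, the cyclin A2 gene of S and G2 phase, rose by a log2 change of 1.53.

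The Cdc25 phosphatases differed in size of change. Cdc25b (gene 12531) had the smallest rise of the 38, from 31.6, 36.5 and 31.3 CPM to 52.4, 43.2 and 46.5 CPM, a log2 change of 0.52 ± 0.11 (SE, adjusted p = 0.0314, and 0.08 with the block). Its spread was also narrow, and the AEW library of mouse 1 was only slightly above the others. Cdc25c (gene 12532), among the least abundant of the group, rose from 3.40 ± 1.31 to 10.1 ± 4.57 CPM, a log2 change of 1.56 ± 0.39. The 95% intervals of the 2 log2 fold changes, 0.26 to 0.77 and 0.64 to 2.48, overlapped, and the difference between them was not tested. Foxm1 (gene 14235), the transcription factor that activates many G2 and M phase genes, measured 9.50, 13.7 and 9.17 CPM in vehicle and 48.0, 19.2 and 24.0 CPM in AEW replicates 1 to 3. Its log2 fold change was 1.49 ± 0.36 (SE, adjusted p = 0.0423, and 0.0997 with the block). With a small count added before taking log2, its ratio of AEW to vehicle was 1.40 in mouse 2, and 5.00 and 2.60 in mice 1 and 3.

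Mitotic kinases included the member with the largest rise. Plk1 (gene 18817), the Polo-like kinase of spindle poles, kinetochores and midzone, measured 7.27, 8.86 and 7.06 CPM in vehicle libraries and 41.8, 19.3 and 22.6 CPM in AEW libraries. Vehicle values were close together, and each treated library was more than 10 CPM higher than all of them. The log2 fold change was 1.85 ± 0.30 (SE, 95% interval 1.14 to 2.56, adjusted p = 0.017, and 0.0442 with the block). Aurka (gene 20878), the Aurora A kinase of the spindle poles, rose from 7.07 ± 0.53 to 17.5 ± 8.37 CPM, and Nek2 (gene 18005), a centrosome kinase, from 4.85 ± 0.67 to 12.6 ± 6.18 CPM. Both lost their call with the block (adjusted p = 0.0759 and 0.113).

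The chromosomal passenger complex, which corrects faulty kinetochore attachments, was called higher in all 4 subunits. Aurkb (gene 20877), its Aurora B kinase, measured 7.37, 7.83 and 4.73 CPM in vehicle and 31.6, 13.8 and 15.7 CPM in AEW replicates 1 to 3, a log2 change of 1.62 ± 0.36. Its adjusted p was 0.035, and 0.0525 with the block. The other 3 subunits were called in both fits. Incenp, the scaffold, had a log2 change of 1.09, Cdca8 (borealin) of 1.35 and Birc5 (survivin) of 1.53. Per transcript length, the mean level in vehicle skin was 5.56 TPM for Aurkb, 8.20 for Incenp, 9.91 for Cdca8 and 15.1 for Birc5.

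Spindle checkpoint genes, 4 in all, were each called higher, with log2 fold changes from 0.86 to 1.83. Bub1 (gene 12235), a checkpoint kinase of the kinetochore, had the lowest level per length of all 38 members in vehicle skin (1.38 TPM) and the second largest rise. It measured 3.28, 4.59 and 3.17 CPM in vehicle libraries and 20.6, 9.24 and 9.36 CPM in AEW libraries, with an adjusted p of 0.0276, and 0.0653 with the block. Ttk (gene 22137), the Mps1 kinase that starts the checkpoint signal, had the smallest gap of the 38 between AEW replicate 1 and the next AEW library. Its vehicle values were 12.8, 15.8 and 12.4 CPM and its AEW values 26.9, 25.3 and 22.1 CPM. AEW replicate 1 was 1.06 times the next treated library, and Ttk had the smallest adjusted p of the members in edgeR (0.0158, and 0.0337 with the block) although its log2 fold change was only 0.86 ± 0.14. Bub1b (BubR1) and Mad2l1 (Mad2), which together restrain Cdc20, had log2 fold changes of 1.23 and 1.13 (adjusted p = 0.041 and 0.0336, and 0.102 and 0.0691 with the block).

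Genes of anaphase onset were also called in all 3 cases. Ube2c (gene 68612), which passes ubiquitin to substrates of the anaphase-promoting complex, had the highest level per length of the 38, at 29.6 ± 5.97 TPM in vehicle and 95.5 ± 39.8 TPM in AEW skin. Its CPM values were 17.5, 18.6 and 12.6 in vehicle and 71.7, 36.8 and 40.9 in AEW replicates 1 to 3. The groups were far apart, with a log2 change of 1.62 ± 0.28 (SE, adjusted p = 0.0196, and 0.0327 with the block). Cdc20 (gene 107995), the activator of that complex, rose from 12.8 ± 2.28 to 36.0 ± 11.8 CPM (adjusted p = 0.017, and 0.0532 with the block). Espl1, the gene of separase, rose by a log2 change of 1.035 ± 0.21 (adjusted p = 0.0301, and 0.0598 with the block).

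Kinetochore genes were called in 2 of 5 cases. Their SEs on the log2 scale ran from 0.31 to 0.38, no wider than that of Cdc25c (0.39), which was called. Cenpe, a kinesin that moves chromosomes to the spindle equator, and Nuf2, of the Ndc80 complex that grips microtubules, rose by log2 fold changes of 1.38 and 1.39 (adjusted p = 0.044 and 0.0447, and 0.0993 and 0.0853 with the block). Ndc80 (gene 67052), the partner of Nuf2, measured 5.03, 5.35 and 3.50 CPM in vehicle and 18.2, 8.03 and 8.48 CPM in AEW replicates 1 to 3, with a log2 change of 1.32 and an adjusted p of 0.0568. The groups did not overlap, and AEW replicate 1 was more than 9 CPM above the other libraries. Cenpa (gene 12615), the histone variant that marks centromeres, had an adjusted p of 0.0503 at a log2 change of 1.18 ± 0.31. Cenpf (gene 108000) had the largest adjusted p of the 38 (0.0988), with vehicle values of 11.4, 18.9 and 14.2 CPM and AEW values of 52.7, 21.8 and 22.2 CPM. In mouse 2 its AEW to vehicle ratio was 1.15, the smallest of any member in any mouse.

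Spindle motors and microtubule-binding proteins were called in 4 of 5 cases. Kif11 (gene 16551), the Eg5 kinesin that pushes the spindle poles apart, measured 14.2, 21.3 and 12.6 CPM in vehicle and 72.7, 37.3 and 36.9 CPM in AEW replicates 1 to 3. Its log2 fold change was 1.61 ± 0.32 (SE, adjusted p = 0.028, and 0.0596 with the block). Tpx2, which activates Aurora A on the spindle, rose by a log2 change of 1.53, and its adjusted p of 0.0227 became 0.0502 with the block. Kif2c, a kinesin that depolymerizes microtubules, and Nusap1, which bundles them, rose by 1.48 and 1.27 on the log2 scale (adjusted p = 0.0853 and 0.0643 with the block). Kif4 (gene 16571), a chromosome-bound kinesin, had a log2 change of 0.94 ± 0.26 and was not called (adjusted p = 0.0609).

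Of the 5 genes of the central spindle and cytokinesis 4 were called higher, and 0 of them with the block. Prc1, which crosslinks midzone microtubules, rose from 21.98 ± 4.75 to 54.0 ± 23.5 CPM. Kif20a and Kif23, midzone kinesins, rose by log2 fold changes of 1.39 and 1.24. Ect2 (gene 13605), which is needed for cytokinesis, had an adjusted p of 0.0487 and a log2 change of 1.44, and it was called in 0 of 6 fits on 5 libraries. Anln (gene 68743), the anillin gene, measured 23.3, 41.5 and 25.6 CPM in vehicle and 72.9, 49.3 and 47.0 CPM in AEW replicates 1 to 3. The vehicle library of mouse 2 came close to the treated libraries, and Anln was not called (log2 fold change 0.91 ± 0.26, adjusted p = 0.0671).

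Mki67 (gene 17345), the gene of the Ki-67 antigen used to count cycling cells in tissue sections, had the highest CPM of the members. It measured 64.3, 109.7 and 75.8 CPM in vehicle and 353.7, 158 and 151 CPM in AEW replicates 1 to 3. The groups did not overlap, but the adjusted p was 0.0519, and 0.126 with the block (log2 fold change 1.41 ± 0.37, SE). Top2a (gene 21973), the topoisomerase that untangles sister chromatids, measured 34.7, 50.7 and 38.1 CPM in vehicle and 195, 90.0 and 90.9 CPM in AEW replicates 1 to 3. It was called, at a log2 change of 1.61 ± 0.33 (adjusted p = 0.0297, and 0.0759 with the block).

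**Figure D2:**
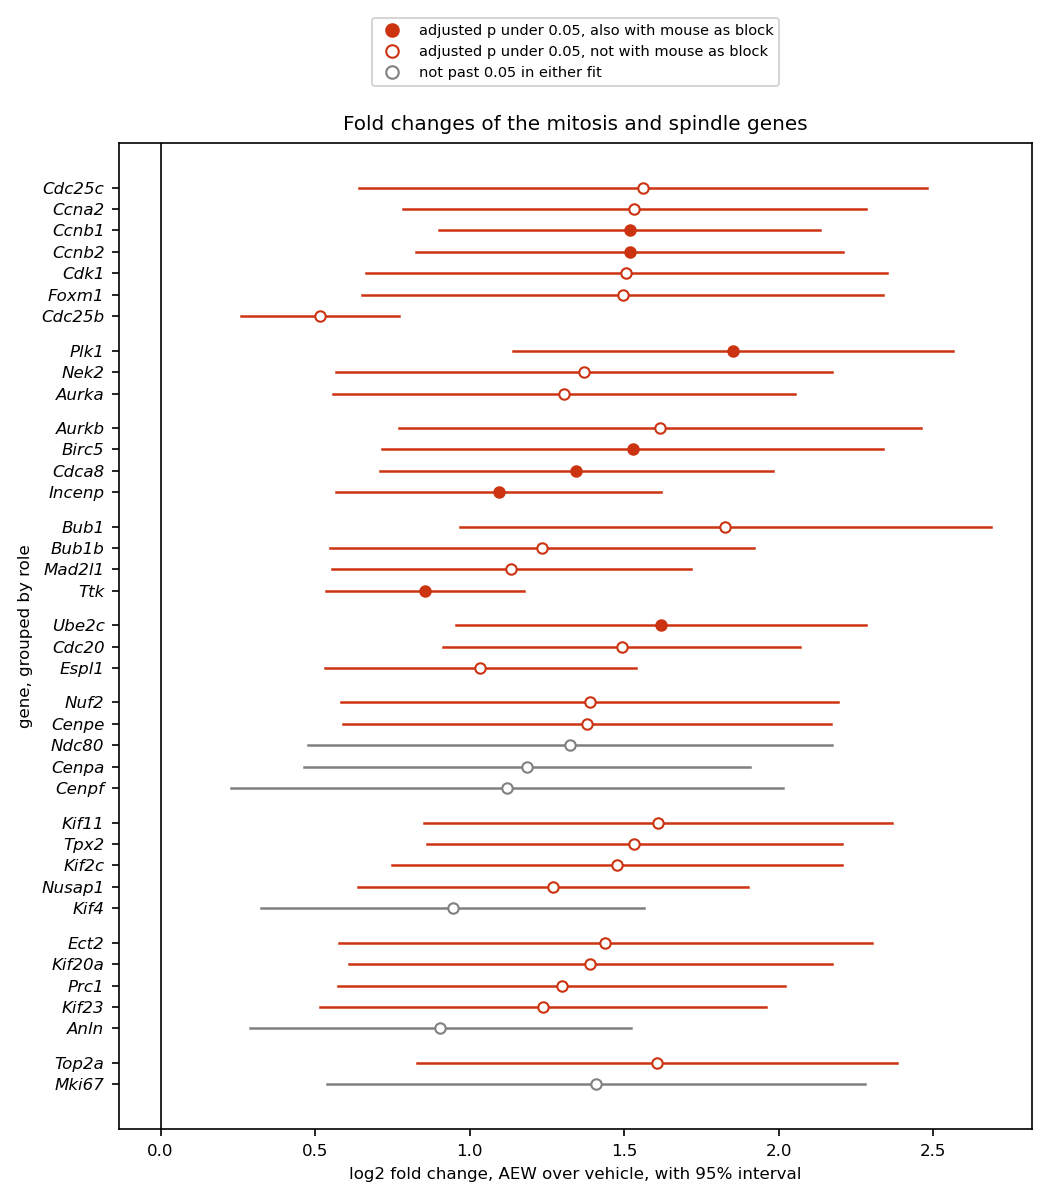
Log2 fold change of AEW over vehicle for each gene with its 95% interval, grouped by role, red where the adjusted p is under 0.05, with a filled point where this also holds with the mouse as a block. All 38 points lie above 0, from 0.52 for Cdc25b to 1.85 for Plk1, and 8 points are filled.

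The size of the rise differed from mouse to mouse. The median log2 ratio of AEW to vehicle CPM over the 38 members was 2.13, 0.69 and 1.13 in mice 1, 2 and 3, while the median over all tested genes was between -0.0071 and 0.0051. In mouse 1, 37 of 38 members were at least 2-fold higher, against 5.47% of tested genes. Mouse 2 had 1 such member, Plk1, against 4.12% of tested genes, and mouse 3 had 26, against 5.61%. A small count was added to each library before the log, which pulls the ratios of scarce genes toward no change. In plain CPM Bub1, at 4.59 CPM in vehicle and 9.24 CPM in AEW in mouse 2, also just passed 2-fold. Mouse 1 gave the largest ratio for all 38 members, and mouse 2 the smallest for 37 of them, the exception being Nek2. The vehicle library of mouse 2 was the highest of the 3 for 36 members, and its AEW library was the lowest of the 3 for 23. All 38 had a larger SD among AEW than among vehicle libraries, and the median coefficient of variation was 43.5% in AEW and 20.0% in vehicle skin. No test of a difference between mice was possible, because each cheek gave 1 library.

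Without AEW replicate 1 the log2 change was smaller for all 38 members, between 0.43 (Cdc25b) and 1.43 (Plk1). A rise of at least 2-fold was seen in 15 of 38, with no share of all tested genes computed without AEW replicate 1. The largest difference was that of Cenpf, whose log2 change was 1.12 with and 0.56 without it (adjusted p = 0.106 in edgeR). Aurka went from 1.31 to 0.83, Nuf2 from 1.39 to 0.88, Foxm1 from 1.49 to 0.99, Mki67 from 1.41 to 0.89, Bub1 from 1.83 to 1.33 and Top2a from 1.61 to 1.13. Ttk, at 0.86 and 0.78, and Cdc25b, at 0.52 and 0.43, moved the least. The 4 members not called without that library were Cdc25c (adjusted p = 0.0546), Cenpf, Ect2 (0.0507) and Anln (0.102), while Mki67, Cenpa, Ndc80 and Kif4 were called there (0.0382, 0.0473, 0.0488 and 0.0383).

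**Figure D3:**
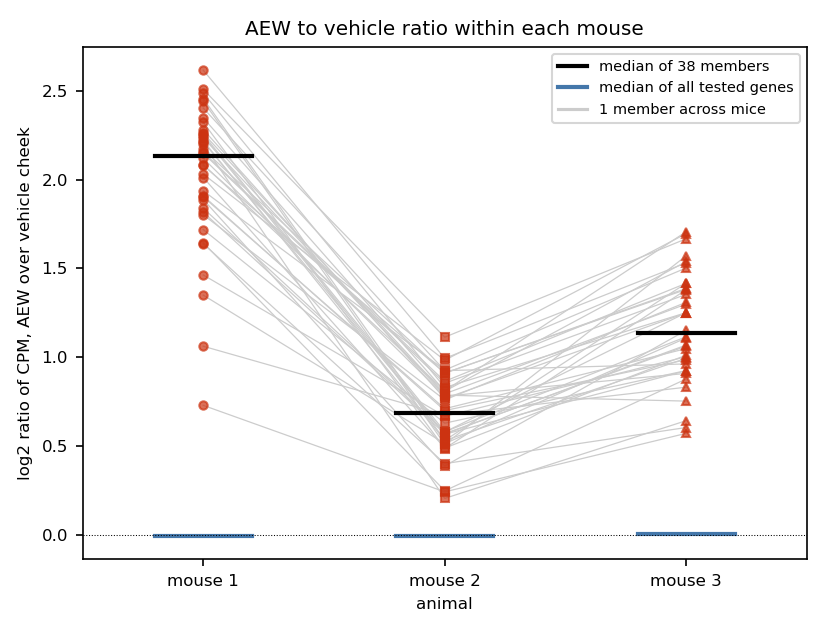
Log2 ratio of CPM between the AEW and the vehicle cheek in each of the 3 mice, with 1 point per gene, grey lines joining the same gene, black bars for the median of the 38 genes and blue bars for the median of all tested genes. A small count was added to each library before the log. Black bars stand at 2.13, 0.69 and 1.13 in mice 1, 2 and 3, and every point is above 0.

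Levels per transcript length (TPM) set the members in order. Ube2c and Cenpa were the highest in both groups, and Cenpa stood at 20.0 ± 6.01 TPM in vehicle and 48.5 ± 19.2 TPM in AEW skin. Birc5, at 45.3 ± 22.9 TPM in AEW skin, ranked next there. Ube2c was above Cenpa in every library. Cenpa and Birc5 changed order among the AEW libraries, at 70.5 and 71.5 TPM in replicate 1, 35.2 and 35.1 in replicate 2, and 39.8 and 29.2 in replicate 3. The order of other neighbours was not tested. Cdc25b moved from rank 3 in vehicle to rank 12 in AEW skin, or to rank 10 without AEW replicate 1, where Ube2c, Cenpa and Birc5 again ranked highest. At the low end were Bub1, Cenpe and Cenpf, with vehicle means of 1.38, 2.06 and 2.27 TPM. The sum over the 38 members was 295, 392 and 275 TPM in vehicle replicates 1 to 3 and 1301, 623 and 681 TPM in AEW replicates 1 to 3.

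Other genes of the cell cycle, 186 in 9 lists that share no gene with the members, gave 185 tested genes. Of these 59 were called higher and 3 lower in edgeR, beside 4.85% and 6.8% of all tested genes, and their median log2 fold change was 0.56. In the fit with a mouse term, 5 rose and 2 fell, beside 1.99% and 3.89% of all tested genes. Leaving out vehicle replicate 1, 2 or 3 gave 0, 15 and 0 higher genes, and leaving out AEW replicate 1, 2 or 3 gave 58, 14 and 27. Among other spindle and cytokinesis genes 16 of 32 were higher, with a median log2 change of 1.01. Tacc3, which stabilizes spindle microtubules, rose from 11.6 ± 0.48 to 31.0 ± 11.3 CPM (adjusted p = 0.0189, and 0.0323 with the block), and the kinesin gene Kif18b rose by a log2 change of 1.78 (0.0479 with the block). Of 34 other centromere and kinetochore genes 7 were higher, among them Zwilch and Spc25 at log2 fold changes of 1.45 and 1.64. Zwilch kept its call with the block (adjusted p = 0.048), and Spc25 did not (0.0553).

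Cohesin and condensin genes, which hold and fold the chromatids, gave 7 higher and 1 lower of 18. Over all tested genes 4.85% were called higher and 6.8% lower, and 18 genes are too few to set 1 lower call apart from that share. Sgo1, which guards centromeric cohesin, and Cdca5 (sororin) rose by log2 fold changes of 1.55 and 1.31 (adjusted p = 0.0325 and 0.0293, and 0.0668 and 0.0652 with the block). Pttg1, the gene of securin, the inhibitor that the anaphase-promoting complex destroys to release separase, went the other way. It measured 41.1, 38.5 and 40.9 CPM in vehicle and 28.0, 29.2 and 29.8 CPM in AEW replicates 1 to 3. The spread within each group was narrow and the groups were apart, with a log2 change of -0.47 ± 0.08 (SE, adjusted p = 0.0178, and 0.0503 with the block). Without vehicle replicate 1 the adjusted p of Pttg1 was 0.0711, without vehicle replicate 3 it was 0.0979, and without AEW replicate 2 it was 0.0615. Espl1, the gene of separase itself, rose as given above.

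A list of anaphase-promoting complex subunits with 3 partners (the activator Fzr1, the ubiquitin-conjugating enzyme Ube2s and the inhibitor Fbxo5) had a median log2 change of 0.17. Of its 17 genes 1 was called higher, a share near the 4.85% of all tested genes. That was Fzr1, the Cdh1 activator of late mitosis and G1, at 36.4 ± 1.68 CPM in vehicle and 49.6 ± 2.69 CPM in AEW skin (adjusted p = 0.0225, and 0.0643 with the block). Of 17 regulators around MuvB, Myb and E2f, which set the timing of G1/S and G2/M transcription, 7 were higher and 1 lower. These stand beside 4.85% and 6.8% of all tested genes, and 17 genes are too few to set 1 lower call apart. Mybl2, the B-Myb gene, and E2f8 rose by log2 fold changes of 1.72 and 1.28, and E2f6, a repressor, fell from 36.2 ± 4.52 to 24.1 ± 0.71 CPM (adjusted p = 0.0241, and 0.0453 with the block). Mybl2 and E2f8 lost the call with the block (adjusted p = 0.0509 and 0.0526). The adjusted p of E2f6 was 0.0859 and 0.108 with vehicle replicate 1 or 3 dropped, and 0.0742 and 0.0571 with AEW replicate 2 or 3 dropped. DNA replication and S phase genes gave 16 higher and 0 lower of 40, with Mcm10 at a log2 change of 1.84 and Tk1 at 1.38. With the block the adjusted p was 0.0323 for Mcm10 and 0.0702 for Tk1.

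Inhibitors of the cycle were also measured. Of 9 tested Cdk inhibitor and Rb family genes 0 were higher and 1 lower in edgeR, beside 4.85% and 6.8% of all tested genes. At an unadjusted p under 0.05 in edgeR 1 was higher, beside 14.8%, and the list's median log2 fold change was -0.11. A list of 9 genes is too short to set 1 call apart from those shares. The gene that fell was Cdkn1c, of the p57 inhibitor, from 23.0 ± 3.09 CPM in vehicle to 13.1 ± 2.08 CPM in AEW skin (log2 change -0.81 ± 0.16, SE, adjusted p = 0.0274, and 0.0299 with the block). With vehicle replicate 1 or 3 dropped, the adjusted p of Cdkn1c was 0.0949 and 0.126, and with AEW replicate 2 or 3 dropped it was 0.0669 and 0.0591. Among brakes and partners of Cdk1, 4 of 9 genes were higher, including Pkmyt1, a kinase that inhibits Cdk1, and Cks2, a Cdk subunit, at log2 fold changes of 0.55 and 1.155 (adjusted p = 0.0831 and 0.0734 with the block). Of the G1 cyclins and kinases 1 of 9 was called higher, beside 4.85% of all tested genes, and this list too is short. The gene was Ccne1 (cyclin E1), which rose from 3.67 ± 0.24 to 7.36 ± 1.21 CPM. Its adjusted p of 0.0224 became 0.0557 with the block.

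**Figure D4:**
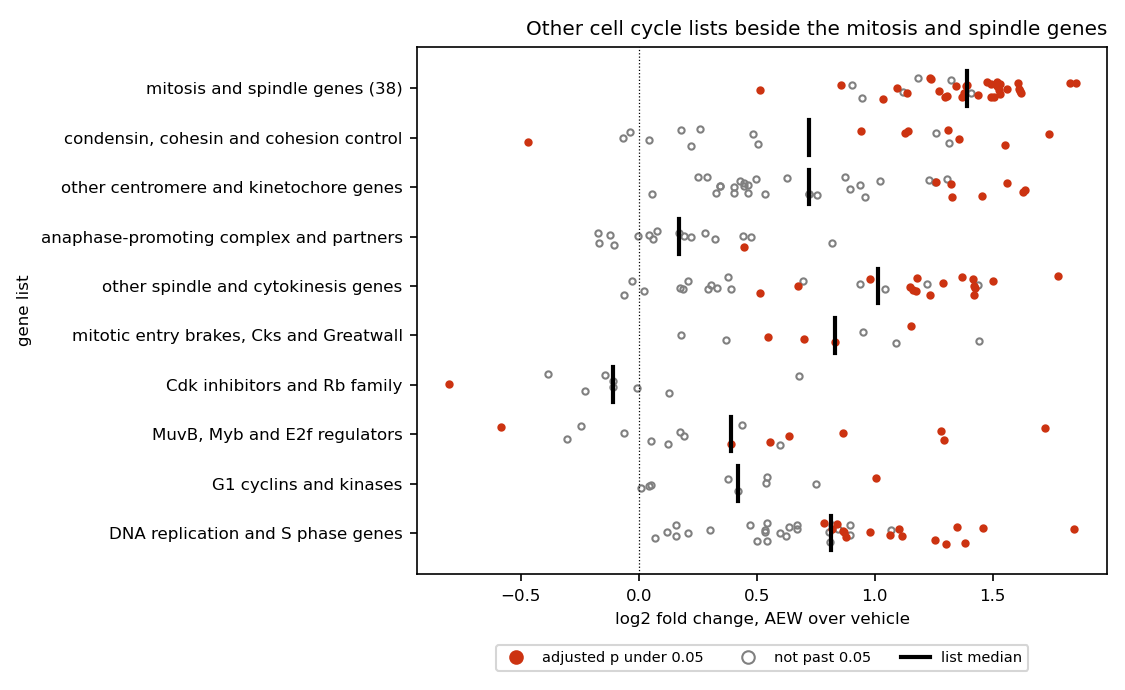
Log2 fold change of AEW over vehicle for single genes of the 38 members and of 9 other cell cycle lists, red where the adjusted p is under 0.05, with a black bar at each list's median. The median bar is at 1.39 for the 38 members, 1.01 for other spindle and cytokinesis genes, 0.82 for S phase genes, 0.17 for the anaphase-promoting complex and its partners and -0.11 for Cdk inhibitors and the Rb family.

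The letters around the members' start sites are shown as a property of the gene list, which does not depend on the treatment. Promoters of G2 and M phase genes are known for a short element with the core TTTGAA or TTCGAA, bound by MuvB complexes, and for CCAAT boxes bound by NF-Y. RefSeq promoter windows of 300 bases (250 before and 50 after the start, build GRCm38.p6, which is not the build of the expression files) were matched by symbol for 31 of 38 members. Windows for Foxm1, Ccna2, Cdc25c, Aurkb, Incenp, Tpx2 and Kif20a were not used here. The 6 windows printed below show 3 of the 4 patterns found, and none is printed for the members with TTTGAA or TTCGAA alone. Cdc20, Plk1, Ube2c and Aurka hold both motifs, Ccnb1 holds CCAAT alone, and Birc5 holds neither. They lie at chr4:118437294-118437593 on the minus strand, chr7:122159185-122159484 on the plus strand, chr2:164769679-164769978 on the plus strand, chr2:172370521-172370820 on the minus strand, chr13:100786437-100786736 on the minus strand and chr11:117848987-117849286 on the plus strand. Each is written 5′ to 3′ along the gene, and capitals mark any of these motifs on either strand (a motif on the other strand is printed as its reverse complement).
Cdc20: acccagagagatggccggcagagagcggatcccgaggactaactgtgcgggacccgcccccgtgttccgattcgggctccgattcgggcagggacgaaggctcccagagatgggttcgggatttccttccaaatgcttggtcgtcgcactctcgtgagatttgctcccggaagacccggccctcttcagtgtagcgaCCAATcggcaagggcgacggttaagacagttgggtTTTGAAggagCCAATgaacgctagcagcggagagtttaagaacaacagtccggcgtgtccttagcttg
Plk1: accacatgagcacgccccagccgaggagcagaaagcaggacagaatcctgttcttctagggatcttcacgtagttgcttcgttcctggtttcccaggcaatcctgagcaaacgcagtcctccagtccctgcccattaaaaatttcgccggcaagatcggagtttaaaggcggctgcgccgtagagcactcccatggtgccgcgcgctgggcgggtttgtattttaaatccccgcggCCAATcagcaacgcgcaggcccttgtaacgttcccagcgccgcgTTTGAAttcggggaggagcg
Ube2c: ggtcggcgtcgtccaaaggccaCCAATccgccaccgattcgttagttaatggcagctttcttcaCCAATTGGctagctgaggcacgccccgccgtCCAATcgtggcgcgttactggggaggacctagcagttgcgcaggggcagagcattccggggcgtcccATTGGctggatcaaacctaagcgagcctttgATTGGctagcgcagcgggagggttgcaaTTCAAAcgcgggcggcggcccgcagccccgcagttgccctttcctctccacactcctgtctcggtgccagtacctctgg
Aurka: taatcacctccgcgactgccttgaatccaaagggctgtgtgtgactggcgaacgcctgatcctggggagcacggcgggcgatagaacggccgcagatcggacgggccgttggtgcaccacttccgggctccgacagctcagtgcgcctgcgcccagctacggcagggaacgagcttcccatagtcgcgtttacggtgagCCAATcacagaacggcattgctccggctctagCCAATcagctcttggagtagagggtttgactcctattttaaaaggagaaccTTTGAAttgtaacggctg
Ccnb1: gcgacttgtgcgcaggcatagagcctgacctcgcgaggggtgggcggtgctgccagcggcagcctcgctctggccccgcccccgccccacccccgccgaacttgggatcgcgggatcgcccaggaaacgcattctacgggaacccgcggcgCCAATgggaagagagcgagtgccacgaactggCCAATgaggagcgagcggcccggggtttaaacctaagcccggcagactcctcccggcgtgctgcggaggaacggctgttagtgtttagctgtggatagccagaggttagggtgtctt
Birc5: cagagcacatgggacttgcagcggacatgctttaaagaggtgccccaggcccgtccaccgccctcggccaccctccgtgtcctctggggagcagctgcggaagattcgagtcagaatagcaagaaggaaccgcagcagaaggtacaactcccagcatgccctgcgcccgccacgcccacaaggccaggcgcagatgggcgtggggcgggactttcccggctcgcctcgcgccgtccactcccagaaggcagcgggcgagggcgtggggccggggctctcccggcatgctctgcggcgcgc

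Counting the start as base 1 and the base before it as -1, TTTGAA began at -18 in Cdc20, 31 in Plk1 and 33 in Aurka, and at -29 on the other strand in Ube2c. CCAAT began at -53 and -8 in Cdc20, at -14 in Plk1, at -51 and -19 in Aurka and at -99 and -67 in Ccnb1, and Ube2c held 6 copies. Both strands were searched in all windows. TTTGAA or TTCGAA was found in 24 of 31 members (77.4%) and in 21.7% of the 27025 genes with a window. Within 60 bases of the start it was found in 22 of 31 members (71.0%) and in 7.0% of all genes. CCAAT was found in 24 of 31 members (77.4%) and 41.1% of all genes, and both were found in 21 members (67.7%) and 8.61% of all genes. Copies of the E2f-like letters TTCCCGC were in 0 of 31 members and 5.29% of all genes, and of TTGGCGC in 4 members (12.9%) and 2.85% of all genes. The median GC content was 59.0% in member windows, 52.7% over all windows and 60% over the windows of tested genes. Among the 11962 tested genes with a window, the shares were 17.0% for TTTGAA or TTCGAA, 5.07% for these within 60 bases of the start, 42.4% for CCAAT, 7.17% for both, 9.004% for TTCCCGC and 4.57% for TTGGCGC. These are matches of letters, not bound sites, and no test was made.

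Fold changes are given by the letters found. The 21 members with both had a median log2 change of 1.35 (0.52 to 1.85). For the 3 with CCAAT alone (Ccnb1, Cenpe and Nek2) it was 1.38, for the 3 with TTTGAA or TTCGAA alone (Anln, Kif2c and Ndc80) 1.32, and for the 4 with neither (Birc5, Mad2l1, Nuf2 and Nusap1) 1.33. Without AEW replicate 1 the medians were 0.89, 0.94, 0.83 and 0.89 in the same order. The ranges overlapped, and the differences were not tested.

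Markers of hair follicles, melanocytes and basal keratinocytes moved in different ways beside the members. The 12 tested markers of hair matrix and inner root sheath summed to 396, 371 and 427 CPM in vehicle replicates 1 to 3 and to 2423, 61.4 and 707 CPM in AEW replicates 1 to 3. AEW replicate 1 was thus high and AEW replicate 2 low. Krt71, an inner root sheath keratin, was at 800.4 CPM in AEW replicate 1 and 5.30 CPM in AEW replicate 2, and Krt25 was at 578 and 1.89 CPM. In mouse 2 the hair markers were 0.166 times the vehicle sum on the AEW cheek, while the 38 members together were 1.57 times it and each of them was higher. In mouse 1 the ratios were 6.12 for the hair markers and 4.23 for the members, and in mouse 3 they were 1.66 and 2.19. Of the hair markers 0 were called in edgeR in either direction, with 3 higher at an unadjusted p under 0.05, beside 14.8% of all tested genes. The hair sum joins matrix genes with inner root sheath keratins, and matrix genes were not summed apart, so it is no measure of dividing hair cells. The part of hair follicle cells in the members' rise was not tested.

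Melanocyte markers, 5 in all, summed to between 18.37 and 27.7 CPM in vehicle libraries and to 236, 39.2 and 44.0 CPM in AEW replicates 1 to 3. Of these 0 were called in edgeR and 5 were higher at an unadjusted p under 0.05, beside 14.8% of all tested genes. The 7 basal keratinocyte markers summed to 7094, 11280.4 and 9300 CPM in vehicle and 11453, 13149 and 12092 CPM in AEW replicates 1 to 3. Of the basal markers 1 was called higher, beside 4.85% of all tested genes, and it was Krt14, from 2799 ± 650 to 5480 ± 895 CPM. Set against 1000 CPM of the basal markers, the members summed to 73.3, 63.5 and 55.5 CPM in vehicle and to 192, 85.3 and 93.2 CPM in AEW replicates 1 to 3. On that scale the lowest AEW library, at 85.3, was above the highest vehicle library, at 73.3. The ratios of AEW to vehicle within mice 1, 2 and 3 were 2.62, 1.34 and 1.68. The part of basal keratinocytes in the members' rise was not tested.

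**Figure D5:**
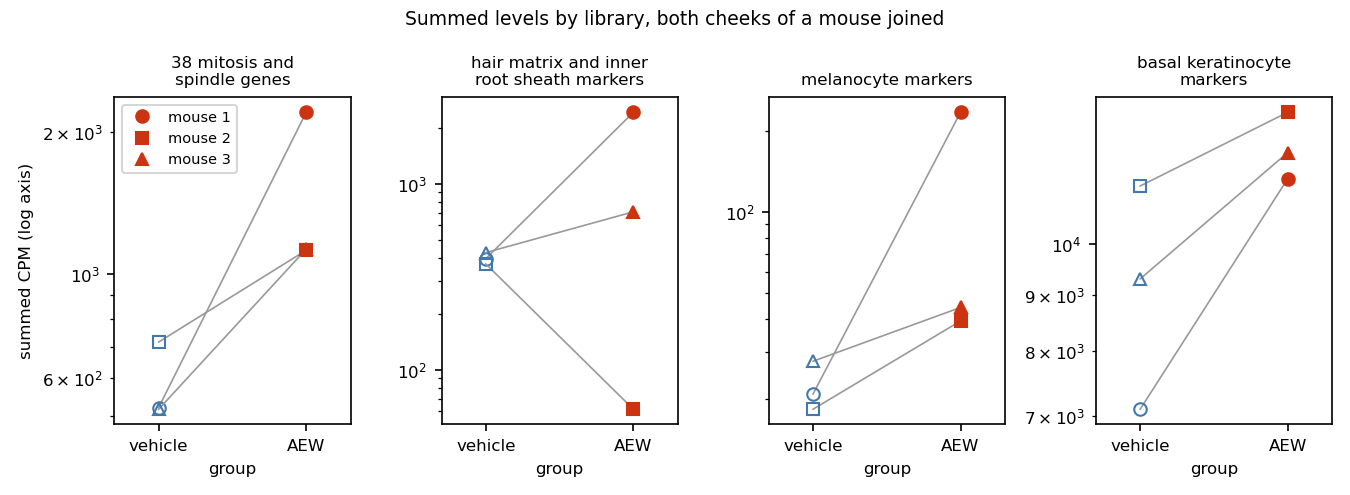
Summed CPM (log axes, 1 scale per panel) of the 38 mitosis and spindle genes and of markers of hair matrix and inner root sheath, melanocytes and basal keratinocytes in each library, with lines joining the cheeks of 1 mouse. The line of mouse 2 goes up for the 38 genes, from 716 to 1121 CPM, and down for the hair markers, from 371 to 61.4 CPM. In mice 1 and 3 the lines of both go up.

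Immune, stromal and other markers were summed in the same way. The 6 leukocyte and macrophage markers summed to between 551 and 1350 CPM in vehicle and between 534 and 1313 CPM in AEW libraries, and were lowest in AEW replicate 1. Their AEW to vehicle ratios were 0.396, 1.95 and 1.74 in mice 1, 2 and 3. Lyz2 and Csf1r, with log2 changes of -0.014 and 0.24 over all libraries, were called higher without mouse 1 in the fit with the block, at 0.81 and 0.76 (adjusted p = 0.00394 and 0.00263 in edgeR). In that fit 12.7% of all tested genes were called higher. With the block, their changes were -0.41 and -0.080 without mouse 2 and -0.27 and -0.065 without mouse 3, and neither gene was called. T cell markers, 6 in all, summed to between 39.4 and 45.3 CPM in vehicle and between 27.6 and 35.9 CPM in AEW libraries, with 1 called lower (Cd3g, adjusted p = 0.0216, and 0.0508 with the block). The 2 tested B cell markers were at or below 1.52 CPM in sum in all libraries. The 2 tested neutrophil markers summed to at most 9.34 CPM in vehicle and between 10.1 and 34.8 CPM in AEW libraries, and Cxcr2 was called higher. Among 5 endothelial markers 1 was lower, of 6 fibroblast markers 1 was higher, of 5 sebaceous gland markers 0 were called (0 higher at an unadjusted p under 0.05 in edgeR), and of 6 suprabasal markers 2 were higher, including Krt1. Skeletal muscle markers fell in 6 of 7 cases, from sums between 22498 and 32853 CPM to sums between 9341 and 12984 CPM. Over all tested genes 4.85% were called higher and 6.8% lower, and lists this short cannot set 1 call apart from those shares. The part of any of these cell types in the members' rise was not tested.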

How the data were processed

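Values were deposited for 6 libraries of cheek tissue, 3 per group. Messenger RNA was purified on oligo(dT) beads and sequenced as 50-base single reads, per the labels' protocols. The submitters' processing notes name HISAT and GRCm39. The sources used here do not give the counting tool, annotation or strand setting. Per the file headers, the deposited table holds 19309 genes with the authors' TPM, FPKM and read counts, treated as estimated counts because many are not whole. FPKM was not used either. Estimated counts were fractional in at least 1 library for 35 of the 38 members, and how the fractions arose is not stated. Columns were matched to mice by the label of each sample (headers 2, 3 and 4 are mice 1, 2 and 3).

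Estimated counts were rounded, filtered with filterByExpr at a minimum count of 10 (15109 genes, at least 99.94% of counts) and scaled by TMM (factors 0.973 to 1.05). The quasi-likelihood test of edgeR (version 4.0.16, under R 4.3.3) compared the groups, with Benjamini-Hochberg adjustment over all tested genes at 0.05. Each SE is the log2 fold change over the square root of its F. Ratios of single genes within a mouse are differences of log2 CPM with a small count added, which pulls those of scarce genes toward no change. DESeq2 1.42.0 and limma 3.58.1 on log2(TPM + 0.1) and log2(TPM + 1) were alternatives, as were other scalings, no filter, leaving out libraries or mice, and the mouse as a block. The fit was tested on simulated data.

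Each number in the labels marks the cheeks of 1 animal and so pairs the libraries. Across genes, the deviations of both cheeks of a mouse from their group means had correlations of -0.244, -0.165 and -0.246 in mice 1, 2 and 3. Between cheeks of different mice the correlations were 0.050 to 0.18. Each mean was taken over the 3 libraries of a group, so these correlations are tied to one another. Replicate libraries all differed beyond counting noise (lowest chi-square 19.8 for each degree of freedom). There are 3 animals in all, each giving 1 library to each group, which limits the precision.

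The members and lists were chosen with earlier results of these data known. Text names all 38 members, up to 3 genes of the smallest p from each cell cycle list and up to 2 of the highest level from each marker list. Promoter windows printed came from a fixed list of 8 members.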

Additional observations from a re-analysis of the deposited data

How the results depend on the processing

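All 38 members kept a positive log2 fold change in each of the 16 other fits, and none of the 608 values turned sign. Of the members, 8 were called higher with the mouse as a replicate block and 19 with limma on log2(TPM + 1), and between 0 and 36 when 1 library or 1 mouse was left out, with 0 without mouse 3 (28 at an unadjusted p under 0.05 in edgeR, the mouse as a block), 14 without mouse 2 and 36 without mouse 1. No share of all tested genes at that unadjusted p was computed without mouse 3. DESeq2 called 38, limma on log2(TPM + 0.1) 22, RLE scaling 32, library totals alone 31 and no low-count filter 32. No member was called lower in any fit. Over all genes, the replicate block gave 300 higher and 588 lower, DESeq2 1351 higher, and limma 664 lower with log2(TPM + 0.1) and 667 lower with log2(TPM + 1). Leave-out fits gave 0 to 1922 higher and 0 to 1588 lower. Of the other cell cycle genes, the replicate block called 5 higher, DESeq2 93 and limma on log2(TPM + 1) 37, and leave-out fits gave 0 to 65 higher and 0 to 7 lower. The replicate block pairs the cheeks of 1 mouse, and the cause of the lower counts was not tested.

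None of the markers whose log2 fold change turned sign was called with all libraries. Lyz2 (-0.014) was 0.080 with the replicate block, 0.0056 with library totals alone, and 0.10 in both limma fits, and up to 0.81 in leave-out fits (lowest -0.41). Krt71 was -0.23 and -0.15, and Krt25 -0.44 and -0.26, in limma on log2(TPM + 0.1) and log2(TPM + 1). In leave-out fits Krt71 ranged from -1.44 to 2.08, Krt25 ranged from -1.50 to 2.21, Csf1r ranged from -0.080 to 0.76 and Cd2 ranged from -0.59 to 0.079.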
